A study of Mus musculus with 4 samples.

Results

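The tumour necrosis factor (TNF) superfamily was followed through 4 microarrays of sorted mouse bone marrow cells. Its members were taken by name, as every gene on the array whose symbol begins with Tnfsf, a ligand, or Tnfrsf, a receptor, with Tnfrsf17 left out. The rule used no measured value and gave 30 genes of 29354 named genes, 11 ligands and 19 receptors, read by 39 probes. The series asks what irradiation followed by a stem cell transplant does to blood progenitors and to the cells around them. There were 4 groups of 1 array each, LSK cells at day 10, LSK cells at day 0, CD45-negative cells at day 10 and CD45-negative cells at day 0. LSK cells, the fraction without lineage markers that carries Sca-1 and c-kit, include blood-forming stem cells and their first descendants. The other population is labelled as niche stroma of the marrow, gated as lacking CD45, an antigen of all leukocytes. All mice were C57BL6/J animals aged 7 weeks. The day 10 cells came from CD45.1 recipients that had received 700 cGy of radiation and 30000 LSK cells from CD45.2 donors, and the day 0 cells came from healthy mice. One passage of the labels describes the stromal sort as negative for CD45.1, and others say CD45-negative without a form. Which form the antibody recognised, whether the LSK cells of day 10 were of donor or recipient origin, and how many animals went into a sample are not stated in the labels.

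Ligands of this superfamily are mostly trimers on the cell surface, and most can be shed. They bind trimerising receptors on neighbouring cells, which signal either through a death domain to caspase-8 or through TRAF adaptors to the transcription factor NF-kappaB. In bone marrow the family is known for the control of osteoclasts by Tnfsf11 (RANKL), for the survival of B cells and plasma cells through Tnfsf13b (BAFF) and Tnfsf13 (APRIL), and for the costimulation of T cells. Soluble or signal-deficient decoy receptors, such as Tnfrsf11b (osteoprotegerin), hold some of the ligands back.

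Levels are log2 fluorescence signals relative to the 75th percentile of the same array, so a level of 0 is the signal of the probe at that percentile, and the levels of different probes are not set against each other. A probe was taken as measured where the scanner software called it well above background. With 1 array a group there is no replicate spread and no test: a difference of at least 2-fold, which is 1 on the log2 scale, is a size, and each difference is one between 2 arrays. The scanner's error model gives the differences of most measured members a spot error between 0.20 and 0.33 log2 units, which covers the array's own noise and not the difference between animals. Well above background were 56.6% and 54.5% of probes for LSK cells at day 10 and day 0, against 52.1% and 47.6% for CD45-negative cells at day 10 and day 0. Ptprc, the gene of CD45, had a level of 5.58 in CD45-negative cells at day 10 and 3.10 at day 0, and of 4.25 and 4.18 in LSK cells at day 10 and day 0. The CD45-negative sort therefore held Ptprc RNA on both days. Of 10 genes of reticular cells, fibroblasts and osteoblasts, 6 were above background in CD45-negative cells at day 10 and 9 at day 0. In LSK cells 6 of the 10 were above background at day 10 and 6 at day 0. Kit, which encodes c-kit, had a level of 4.65 in LSK cells at day 10 and 5.04 at day 0. In CD45-negative cells the level of Kit was 1.94 at day 10 and 1.52 at day 0. Ly6a, the gene of Sca-1, had levels of 2.86 and 2.98 in LSK cells at day 10 and day 0. Its level in CD45-negative cells was 3.44 at day 10, higher than in LSK cells, and 0.20 at day 0. Of 8 stem and progenitor markers, 6 were measured in both populations at day 10 and 3 at day 0. At least 2-fold higher in LSK cells were 4 and 3 of these, and 0 were at least 2-fold lower.

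Of the 30 members, 21 were above background in LSK cells at day 10 and 19 at day 0, and 19 were in CD45-negative cells at day 10 and 15 at day 0. These counts are 70.0%, 63.3%, 63.3% and 50% of the members, where all named genes gave 59.4%, 57.8%, 56.2% and 52.0% on the same arrays. A total of 14 members were above background on all 4 arrays: the ligands Tnfsf10, Tnfsf13 and Tnfsf14, and 11 receptors. Another 6 were above background on none, namely the ligands Tnfsf4, Tnfsf12, Tnfsf15 and Tnfsf18 and the receptors Tnfrsf8 and Tnfrsf23. Tnfsf4 and Tnfsf18 are T cell costimulators, Tnfsf12 (TWEAK) is the ligand of Tnfrsf12a, and Tnfsf15 is the ligand of Tnfrsf25. Of the remaining members, 5 were above background on 1 array, 2 on 2 arrays and 3 on 3 arrays.

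**Figure D1:**
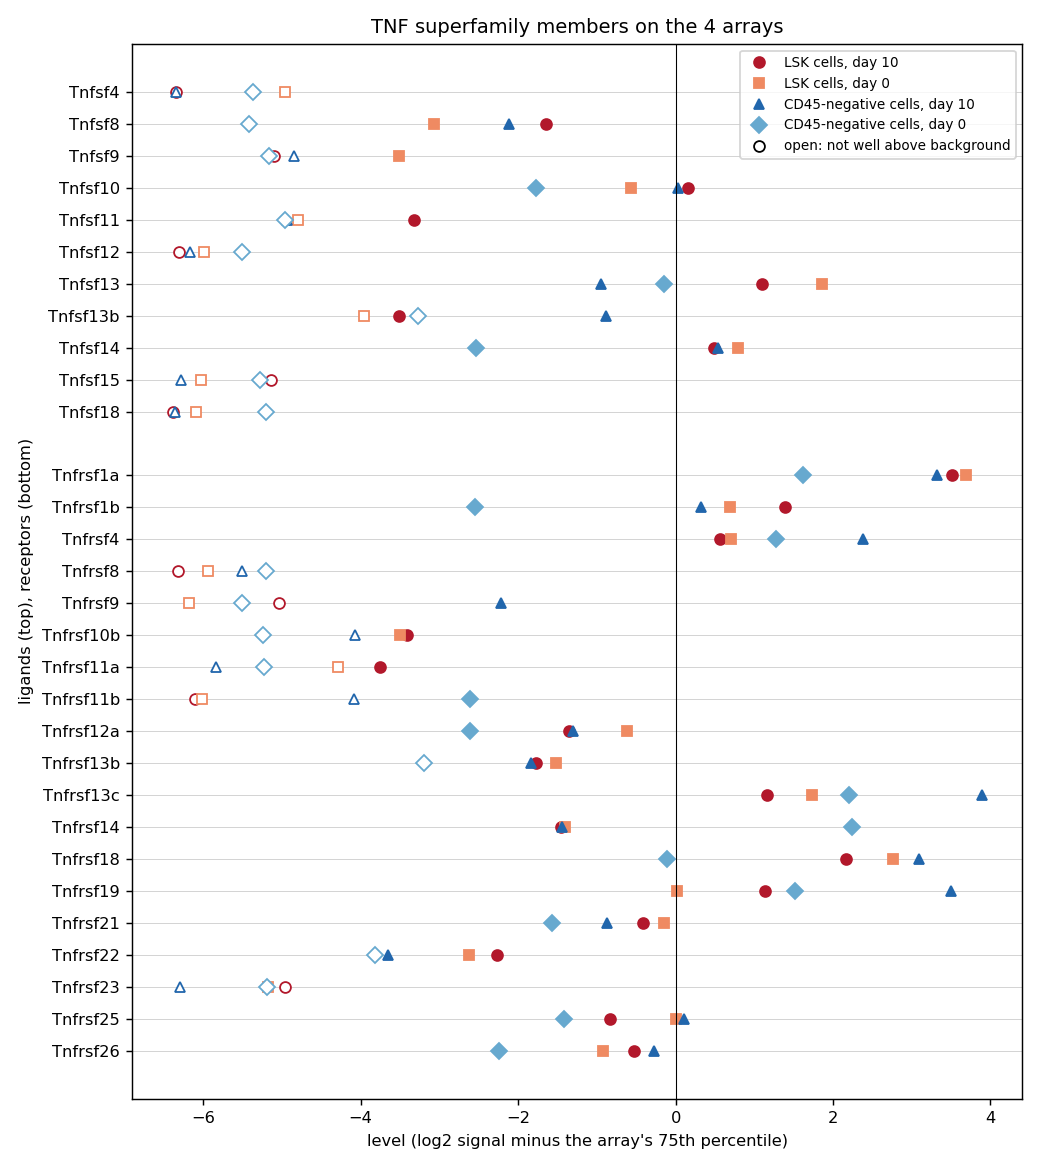
Level of each of the 30 members on the 4 arrays, on the x axis as log2 signal minus the 75th percentile of the array, with ligands in the upper block and receptors in the lower. Filled symbols are well above background and open ones are not: 14 members are filled on all 4 arrays and 6 on none.

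The family's large differences between days lay in the CD45-negative cells. Of the 14 members measured on both CD45-negative arrays, 11 were at least 2-fold higher at day 10 than at day 0, where 23.6% of all 14509 genes measured there were, and 1 was at least 2-fold lower, where 17.9% of all genes were. The median difference of the members was 1.70, and 1.52 with the members that have a bound placed at it. Over all genes the 2 medians were 0.19 and 0.20. In share, 78.6% of the measured members were at least 2-fold higher. All genes at least 2-fold apart split into 3419 higher and 2591 lower with the main scaling, 5448 and 1685 with a median shift, and 13770 and 114 with a shift by spike-in controls, so the direction of a gene here is relative to the scaling used. Correcting the background with normexp, a model run here with an offset of 50 that compresses the folds of dim probes, left 7 members at least 2-fold higher. Each sample is RNA from a whole sorted population, so fewer cells of a type and less RNA per cell cannot be told apart in any of these differences.

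**Figure D2:**
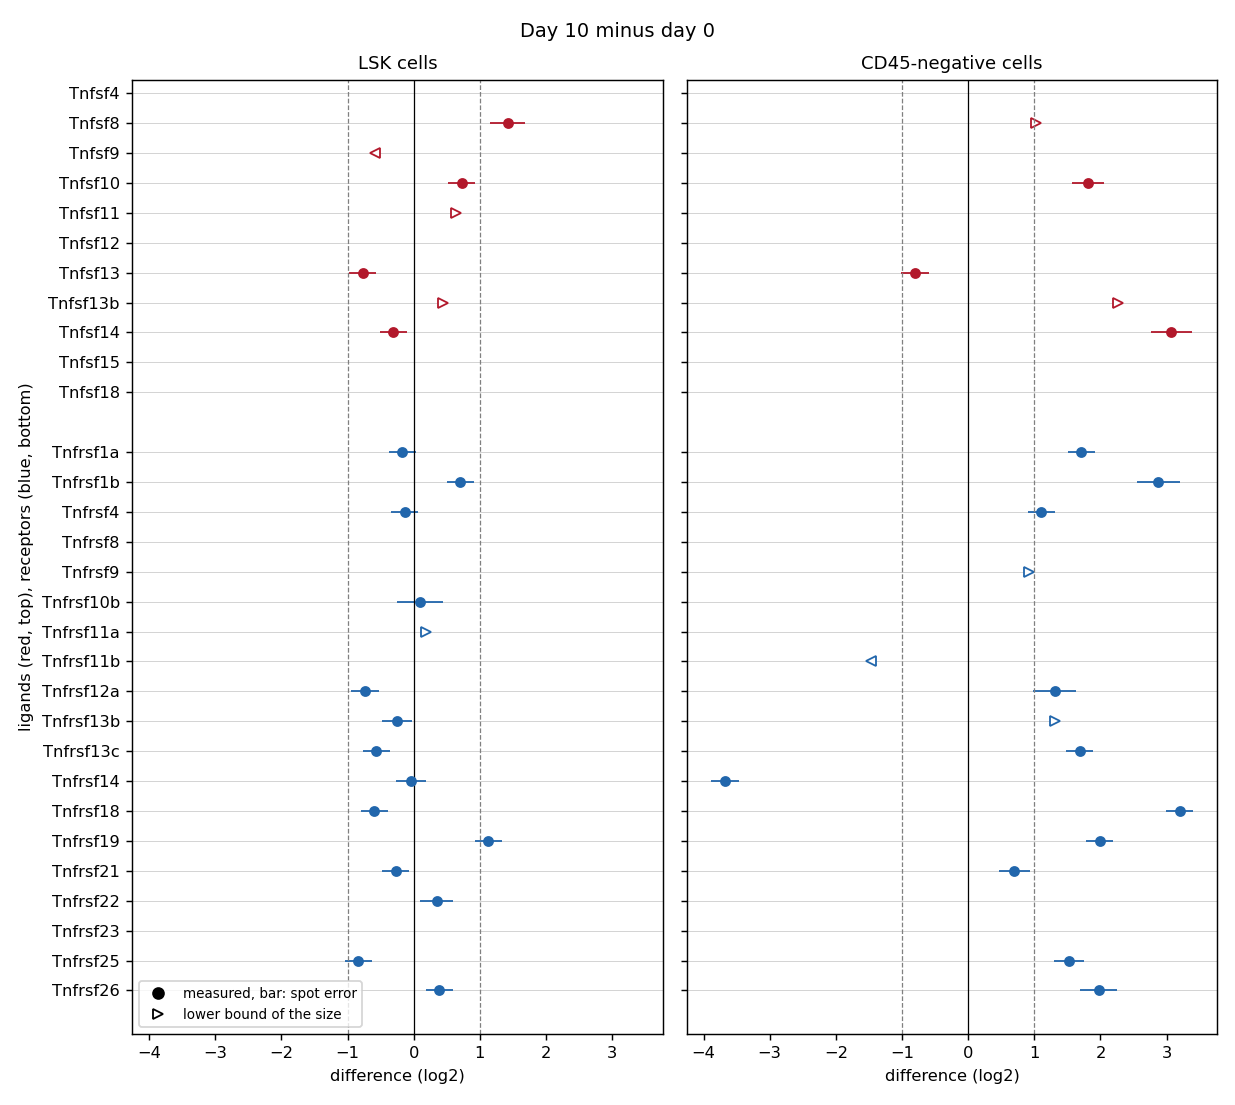
Difference between day 10 and day 0 on the log2 scale (x axis) for each member, LSK cells on the left and CD45-negative cells on the right. Dots are members above background on both arrays with the scanner's spot error as a bar, open triangles are lower bounds of the size, and dashed lines mark 2-fold: in CD45-negative cells 11 dots lie beyond the right line and 1, Tnfrsf14, beyond the left.

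Markers of several cell types also differed between the CD45-negative arrays. Of 12 markers of T and NK cells, 11 were above background at day 10 and 6 at day 0. The 6 measured on both arrays were all at least 2-fold higher at day 10 (median difference 3.13). Summed levels here and below are linear, in units of the array's 75th percentile. They add all genes of a list, above background or not, so a sum is led by its brightest probes. For the 12 T and NK cell markers the sum was 70.6 at day 10 against 3.64 at day 0. B cell markers were at least 2-fold higher for 5 of 6 measured, with a summed level of 238 at day 10 against 120 at day 0. Plasma cell markers were higher for 5 of 5 measured, with 284.5 at day 10 against 21.5 at day 0. Of 8 neutrophil markers 5 were at least 2-fold higher, with sums of 623 at day 10 and 574 at day 0. In the other direction, 8 of 8 erythroid markers were at least 2-fold lower, with a summed level of 97.4 at day 10 against 1704 at day 0. All 6 measured reticular, fibroblast and osteoblast markers were at least 2-fold lower too, with 13.7 at day 10 against 140 at day 0, as were 4 of 4 measured megakaryocyte markers, with 1.40 against 29.2. Monocyte and macrophage markers had 1 of 7 higher and 1 lower, and sums of 204 at day 10 and 154 at day 0. Basophil and mast cell markers were higher for 3 of 3 measured, with 9.5 against 1.70. Endothelial markers were mixed: 2 of 3 measured were higher, while Cldn5 and Esam, not above background at day 10, were at least 4.10-fold and 3.72-fold lower, and 3 of 6 were above background at day 10 against 5 at day 0, with sums of 1.87 and 1.12. These shifts run alongside every CD45-negative difference below, and their part in them was not tested.

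Among the ligands, Tnfsf14 (LIGHT), a costimulator of T cells that binds Tnfrsf14 and the lymphotoxin beta receptor, had a level of 0.53 in CD45-negative cells at day 10 against -2.54 at day 0. In LSK cells its level was 0.48 at day 10 and 0.79 at day 0. The CD45-negative array of day 0 is the low one of the 4, and the day difference there was 3.07, or 8.41-fold higher. Tnfsf10 (TRAIL), which triggers apoptosis through death receptors, had levels of 0.03 in CD45-negative cells at day 10 and -1.78 at day 0, against 0.15 and -0.57 in LSK cells at day 10 and day 0. It was 3.52-fold higher at day 10 in CD45-negative cells and 1.65-fold higher in LSK cells, and with normexp the CD45-negative difference was 0.90, under the 2-fold line.

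Tnfsf13b (BAFF), the survival factor of B cells, was above background on 2 arrays. Its level was -0.89 in CD45-negative cells at day 10, where the day 0 array did not call it, and -3.51 in LSK cells at day 10, where day 0 again did not. It was at least 4.79-fold higher at day 10 in CD45-negative cells and at least 1.36-fold higher in LSK cells. The LSK difference of Tnfsf13b, 0.446, was within its spot error of 0.452. Tnfsf13 (APRIL), its close relative, went the other way in both populations. Its level was 1.09 in LSK cells at day 10 and 1.86 at day 0, and -0.95 in CD45-negative cells at day 10 and -0.15 at day 0, differences of -0.77 and -0.80 that do not reach 2-fold. With the spike-in shift the CD45-negative difference of Tnfsf13 had the opposite sign, at 2.57.

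Tnfsf8, the ligand of the lymphocyte receptor Tnfrsf8 (CD30), had levels of -1.65 in LSK cells at day 10 and -3.07 at day 0. In CD45-negative cells it was -2.12 at day 10 and not above background at day 0. It was the one ligand at least 2-fold higher in LSK cells, by 2.67-fold, and in CD45-negative cells it was at least 2.04-fold higher. With normexp the LSK difference was 0.46. Tnfsf11 (RANKL), which drives the formation of osteoclasts, was above background on 1 array, LSK cells at day 10, at a level of -3.32, at least 1.55-fold higher than at day 0. A second probe of Tnfsf11 was above background on none of the 4 arrays, so that call rests on the choice of probe. Tnfsf9, a costimulator of T cells, was above background in LSK cells at day 0, at -3.52, and on no other array, which made it at least 1.5-fold lower at day 10.

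Among the receptors, the main TNF receptors differed between days in CD45-negative cells. Tnfrsf1a, the death domain receptor of TNF, had levels of 3.32 at day 10 and 1.61 at day 0 there, against 3.52 and 3.69 in LSK cells at day 10 and day 0. CD45-negative cells at day 0 were the low sample, and the difference was 1.71, or 3.27-fold higher at day 10. Tnfrsf1b, the TNF receptor without a death domain that T cells and myeloid cells carry, had levels of 0.32 in CD45-negative cells at day 10 and -2.55 at day 0, and of 1.39 and 0.69 in LSK cells. By this probe it was 7.34-fold higher at day 10 in CD45-negative cells.

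A second probe of Tnfrsf1b, above background on all 4 arrays, did not follow the first. Its levels were -2.79 in CD45-negative cells at day 10 and -1.86 at day 0, a difference of -0.93 where the first probe gave 2.88. In LSK cells its difference was 0.50 where the first gave 0.71. The mean of both probes gave 0.97 in CD45-negative cells, so the call of Tnfrsf1b there rests on the choice of probe, and with normexp the difference of the first was 1.1. A gene with several probes was represented by the one with the highest mean, and for the receptors Tnfrsf25 and Tnfrsf9 a second probe was above background on none of the 4 arrays. The first 30 of the 60 bases of each of these probes on the array design are shown, in lower case throughout, since the results of the 3 genes turn on which was read:
Tnfrsf1b, probe used: gcaattgcactgtgtgctggacagaattcc
Tnfrsf1b, second probe: ctggtgaactgcttcatcctggtgcagagg
Tnfrsf25, probe used: gattggttgctcagctgttaattagcccga
Tnfrsf25, second probe: gcatgtctggcaggtgtgactgtgccagtg
Tnfrsf9, probe used: acctcatccaagtctcttctaacgctaaca
Tnfrsf9, second probe: tctgagaaaatgacagtttcagttggatct

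Costimulatory receptors of T cells were the next group. Tnfrsf18 (GITR), abundant on regulatory T cells, had levels of 3.09 in CD45-negative cells at day 10 and -0.11 at day 0, against 2.17 and 2.76 in LSK cells at day 10 and day 0. Its day difference in CD45-negative cells, 3.20 or 9.17-fold higher, was the largest among the 11 members at least 2-fold higher there with the main setting, and LSK cells went slightly the other way at -0.60. Tnfrsf4 (OX40), whose gene lies next to that of Tnfrsf18 on chromosome 4, had levels of 2.38 in CD45-negative cells at day 10 and 1.28 at day 0. It was 2.15-fold higher there, against a difference of -0.13 in LSK cells, where its levels were 0.57 at day 10 and 0.70 at day 0. Under cyclic loess its CD45-negative difference was 0.93, below the 2-fold line.

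Tnfrsf9, a receptor that T cells gain on activation, was above background on 1 array, CD45-negative cells at day 10, at a level of -2.22. It was at least 1.90-fold higher there than at day 0. Tnfrsf25, a death domain receptor of T cells, had levels of 0.11 in CD45-negative cells at day 10 and -1.41 at day 0, and of -0.84 and 0.00 in LSK cells at day 10 and day 0. The populations went opposite ways, 2.87-fold higher at day 10 in CD45-negative cells and 1.79-fold lower in LSK cells. With normexp the CD45-negative difference of Tnfrsf25 was 0.77.

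Tnfrsf14 (HVEM), a receptor of Tnfsf14, was the measured member at least 2-fold lower in CD45-negative cells. Its level was -1.44 there at day 10 against 2.24 at day 0, 12.8-fold lower, and -1.45 and -1.41 in LSK cells at day 10 and day 0. The day 0 CD45-negative array stands apart from the other arrays. With the spike-in shift the difference was -0.30 in place of -3.67. Tnfsf14 and Tnfrsf14, ligand and receptor, were thus on opposite sides in this population, and they were the one of 15 ligand and receptor pairs of the family with both genes above background on all 4 arrays.

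The receptors of the B cell ligands were higher at day 10 in CD45-negative cells. Tnfrsf13c, the BAFF receptor of mature B cells, had levels of 3.89 there at day 10 and 2.21 at day 0, against 1.16 and 1.73 in LSK cells at day 10 and day 0. It was 3.21-fold higher at day 10 in CD45-negative cells and 1.48-fold lower in LSK cells. Tnfrsf13b (TACI), which binds both BAFF and APRIL, had levels of -1.83 in CD45-negative cells at day 10 and -1.78 and -1.52 in LSK cells at day 10 and day 0. CD45-negative cells at day 0 did not reach background, and the day 10 level was at least 2.49-fold higher.

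Tnfrsf19 (TROY), a receptor studied mainly outside the blood, was at least 2-fold higher at day 10 in both populations. Its levels were 1.14 in LSK cells at day 10 and 0.01 at day 0, a 2.18-fold difference, and 3.50 in CD45-negative cells at day 10 and 1.52 at day 0, a 3.97-fold difference. The LSK difference lay near the line: it was 0.85 with normexp and 0.95 with the spike-in shift. Tnfrsf12a, the receptor of TWEAK, had levels of -1.30 in CD45-negative cells at day 10 and -2.61 at day 0, against -1.36 and -0.62 in LSK cells. Its CD45-negative difference of 1.31 was 0.19 with normexp, and its LSK difference was -0.74.

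Tnfrsf26, a mouse receptor in a cluster with Tnfrsf22 and Tnfrsf23 on chromosome 7, had levels of -0.27 in CD45-negative cells at day 10 and -2.24 at day 0, and of -0.53 and -0.92 in LSK cells at day 10 and day 0. It was 3.93-fold higher at day 10 in CD45-negative cells, with a normexp difference of 0.88. Tnfrsf22, a mouse decoy receptor of TRAIL, was above background on 3 arrays, at -2.27 and -2.62 in LSK cells at day 10 and day 0 and -3.66 in CD45-negative cells at day 10. Its levels there gave no fold against day 0. Tnfrsf21, a death domain receptor, had levels of -0.88 in CD45-negative cells at day 10 and -1.57 at day 0, and of -0.42 and -0.14 in LSK cells, and neither difference reached 2-fold.

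Tnfrsf11b, the soluble decoy of RANKL that osteoblasts and stromal cells secrete, was above background on 1 array, CD45-negative cells at day 0, at -2.62. It was at least 2.78-fold lower at day 10, beside the stromal markers that were lower in the same sample. Before scaling, its processed signal in CD45-negative cells was 18.5 at day 10 and 18.9 at day 0. The 75th percentiles of these arrays were 8.30 and 6.86 on the log2 scale, so the fold of Tnfrsf11b rests on the scaling. Tnfrsf11a (RANK), the receptor on osteoclast precursors, was above background in LSK cells at day 10, at -3.76, at least 1.14-fold higher than at day 0. A second probe of Tnfrsf11a was above background on the same array alone. It differed by 1.80 between the days in LSK cells, against 0.53 for the probe used. Tnfrsf10b, the mouse death receptor of TRAIL, was above background in LSK cells on both days, at -3.41 and -3.50 for day 10 and day 0, and not in CD45-negative cells. Another probe of Tnfrsf10b was above background in LSK cells at day 10 alone and differed by 1.51 between the days, against 0.09 for the probe used.

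In LSK cells the members differed little between the days. Of 18 measured, 2 were at least 2-fold higher at day 10, Tnfsf8 and Tnfrsf19, where 1.44% of all 16408 genes measured were. None was at least 2-fold lower, where 2.68% of all genes were. With no replicate there is no test behind these counts. The median difference was -0.15 for the members and -0.01 for all genes, and 11 of the 18 were below 0. Largest below 0 were Tnfrsf25 (-0.84), Tnfsf13 (-0.77), Tnfrsf12a (-0.74), Tnfrsf18 (-0.60) and Tnfrsf13c (-0.57), and after the 2 genes beyond 2-fold Tnfsf10 (0.72) and Tnfrsf1b (0.71) were the highest. With normexp neither of the 2 reached 2-fold. Of the 14 members above background on all 4 arrays, 8 were lower at day 10 in LSK cells and higher in CD45-negative cells, at any size of difference, as were 27% of the 14189 genes above background on all 4. Of the T and NK cell markers 3 of 10 measured were at least 2-fold lower at day 10 in LSK cells and 1 was higher, with summed levels of 12.2 at day 10 and 16.6 at day 0. Monocyte and macrophage markers were higher for 2 of 7, with sums of 95.6 at day 10 and 50.5 at day 0, and basophil and mast cell markers were lower for 4 of 6, with 75.6 at day 10 and 257 at day 0. Plasma cell markers were lower for 2 of 6, with 26.2 at day 10 and 219 at day 0. The sum of day 0 is led by Jchain, with levels of 2.96 at day 10 and 7.60 at day 0. The median difference of the 6 plasma cell markers was -0.79. Neutrophil markers were higher for 3 of 8, with sums of 474 at day 10 and 450 at day 0. Stromal markers were higher for 2 of 6, with 4.47 at day 10 and 4.08 at day 0, and B cell markers for 1 of 6, with 71.1 and 50.3. Erythroid markers were lower for 2 of 5, with 6.39 at day 10 and 11.8 at day 0, and megakaryocyte markers for 1 of 6, with 11.2 and 22.1. Their part in the members' differences was not tested.

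**Figure D3:**
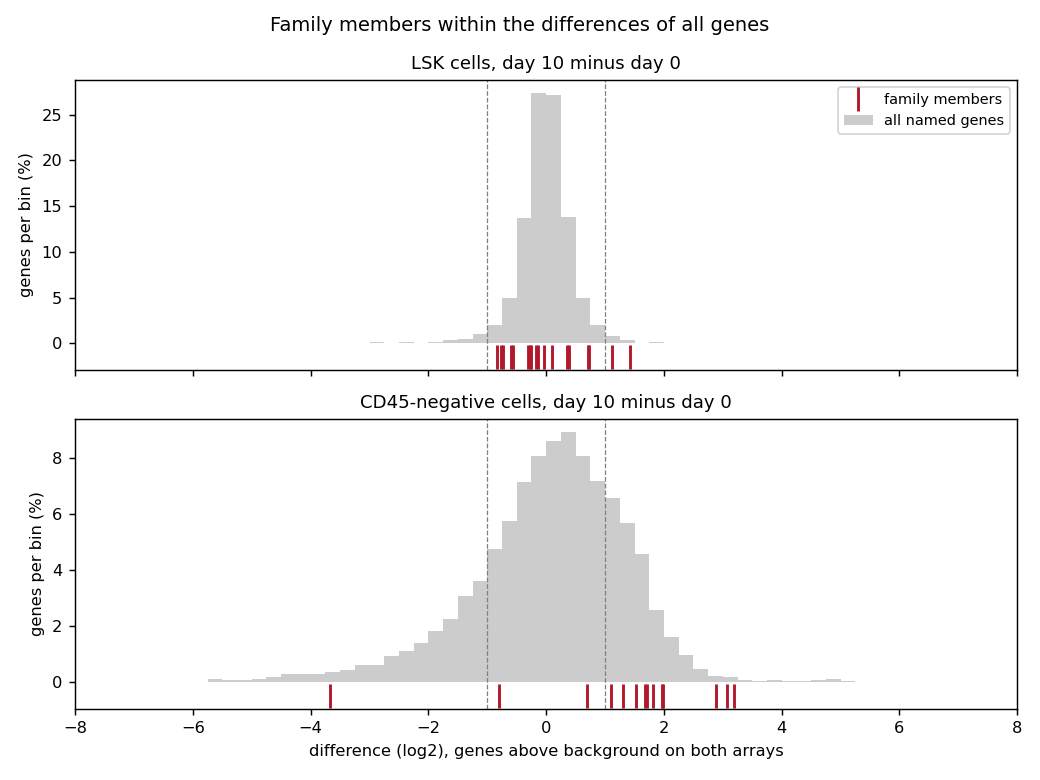
Share of all named genes (y axis, percent per bin of 0.25) by their day 10 minus day 0 difference on the log2 scale (x axis), for genes above background on both arrays, LSK cells above and CD45-negative cells below. Red ticks are the measured members and dashed lines mark 2-fold: in CD45-negative cells the median of the members is 1.70 and that of all genes 0.19, and in LSK cells they are -0.15 and -0.01.

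The populations were also set against each other within a day. These comparisons use the same 4 arrays as the comparisons of days, so they are another reading of the same levels and not separate evidence. At day 10 the members lay on both sides in like numbers. Of 18 members measured in both populations, 3 were at least 2-fold higher in LSK cells, where 11.1% of all 15848 genes measured were, and 4 were at least 2-fold lower, where 12.6% of all genes were. The median was -0.03 for the members and 0.01 for all genes. This split depends on the scaling: members at least 2-fold higher made up 42.9% of those 2-fold apart, against 33.3% with quantile normalization, 16.7% with cyclic loess, 14.3% with a median shift, 28.6% with normexp and 0% with the spike-in shift. Tnfsf13 was 4.12-fold higher in LSK cells, close to its 4.03-fold at day 0. Tnfrsf22 was 2.61-fold higher, but its difference was 0.68 with normexp, 0.76 with cyclic loess, 0.97 with the median shift and 0.99 with quantile normalization, all short of 2-fold. Tnfrsf1b was 2.10-fold higher, with a difference of 0.99 under cyclic loess and 0.66 under the median shift. With the spike-in shift the differences of Tnfrsf22 and Tnfrsf1b had the opposite sign.

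The 4 members lower in LSK cells at day 10 were Tnfrsf13c by 6.65-fold, Tnfsf13b by 6.16-fold, Tnfrsf19 by 5.15-fold and Tnfrsf4 by 3.52-fold, so a ligand of B cells and its receptor were both on the CD45-negative side. Tnfrsf9 was at least 3.67-fold lower. T and NK cell markers were at least 2-fold lower in LSK cells for 10 of 10 measured, plasma cell markers for 6 of 6 and B cell markers for 5 of 6 at that day. Erythroid markers were lower for 5 of 5, neutrophil markers for 6 of 8 with 2 higher, and stromal markers for 4 of 6 with 1 higher. Basophil and mast cell markers were higher for 5 of 5, monocyte and macrophage markers for 5 of 7 with 2 lower, and megakaryocyte markers for 3 of 4. Their part in these differences was not tested.

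At day 0, 14 members were measured in both populations. In LSK cells 10 of them were at least 2-fold higher than in CD45-negative cells, where 21.8% of all 14552 genes measured were, and 2 were at least 2-fold lower, where 17.7% of all genes were. The median LSK minus CD45-negative difference was 1.42 for the members and 0.08 for all genes. Tnfsf14 was 10.0-fold higher in LSK cells, Tnfrsf1b 9.47-fold (3.24 by the probe used and -0.04 by the second probe, on the log2 scale), and Tnfrsf18 7.32-fold. Tnfrsf1a, Tnfsf13, Tnfrsf12a, Tnfrsf21, Tnfrsf25, Tnfrsf26 and Tnfsf10 had differences between 2.08 and 1.21. The 2 members lower in LSK cells were Tnfrsf14, by 12.5-fold, and Tnfrsf19, by 2.83-fold, and with the spike-in shift Tnfrsf19 had a difference of 0.25. With normexp 5 members were higher. At that day erythroid markers were at least 2-fold lower in LSK cells for 6 of 6 measured, stromal markers for 5 of 6 with 1 higher, neutrophil markers for 6 of 8 with 2 higher, and B cell markers for 3 of 6. Plasma cell markers were higher for 4 of 5, basophil and mast cell markers for 3 of 3 and T and NK cell markers for 3 of 6. Megakaryocyte markers had 2 of 6 higher and 3 lower, and monocyte and macrophage markers 2 of 7 higher and 2 lower. Their part in these differences was not tested.

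Both genes of a ligand and receptor pair were above background for 7 and 4 of 15 pairs in LSK cells at day 10 and day 0, against 5 and 1 in CD45-negative cells at day 10 and day 0. Of all single named genes, 59.4% and 57.8% were above background in LSK cells at day 10 and day 0. In CD45-negative cells these shares were 56.2% and 52.0%. No share was computed for pairs of other genes. The pairs of BAFF with Tnfrsf13c and with Tnfrsf13b were complete at day 10 in both populations and on neither array of day 0, where Tnfsf13b was not above background. In LSK cells at day 0 the level of Tnfsf13b, -3.96, lay just under the lowest called level, -3.95. Its LSK day difference of 0.446 was within its spot error of 0.452. The pair of Tnfsf11 with Tnfrsf11a, complete in LSK cells at day 10 alone, rests on 1 of the 2 probes of Tnfsf11.

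**Figure D4:**
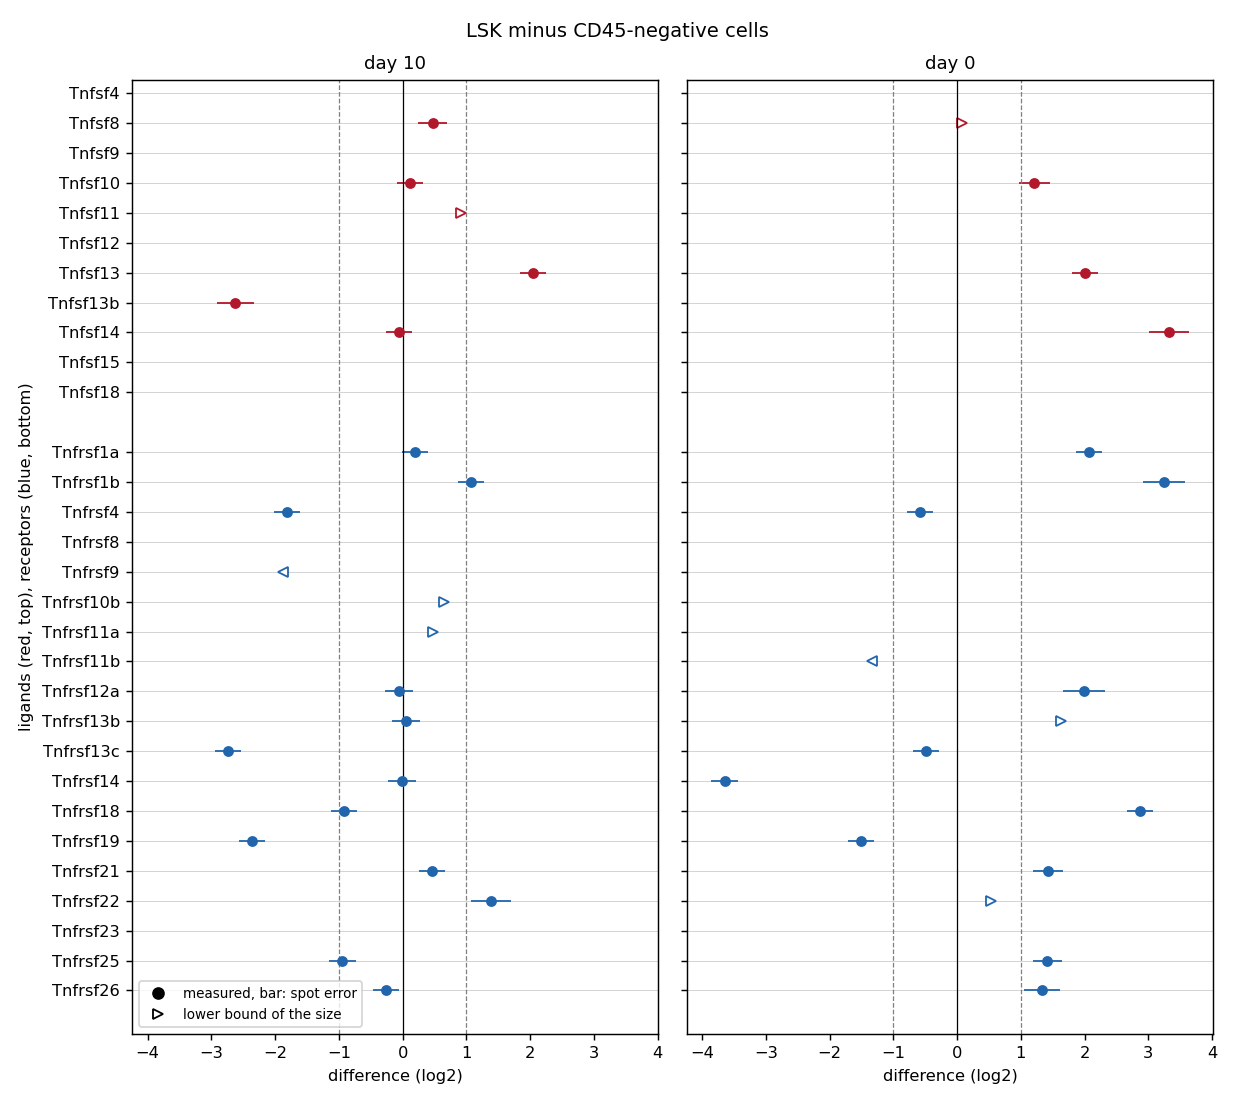
Difference between LSK and CD45-negative cells on the log2 scale (x axis) for each member, day 10 on the left and day 0 on the right, with symbols as in the plot of day differences. At day 10, 3 dots lie beyond the right dashed line and 4 beyond the left; at day 0 these counts are 10 and 2.

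Other ligands and receptors of the superfamily carry names outside the rule. Of 7 such ligands, 3 were measured on both CD45-negative arrays and 2 were at least 2-fold higher at day 10: Ltb, a lymphotoxin subunit, by 6.77-fold, and Tnf itself by 4.41-fold. Lta, the other lymphotoxin subunit, had a difference of 0.56, and Fasl, the death ligand of cytotoxic lymphocytes, was at least 9.72-fold higher. In LSK cells 4 of these ligands were measured, 0 were at least 2-fold higher, and Fasl was 2.03-fold lower at day 10. Of 8 receptors named otherwise, 5 were measured in CD45-negative cells. Fas, the receptor of Fasl, was 3.82-fold higher at day 10, and Relt, a receptor of lymphoid tissue, was 4.23-fold lower. Cd27, a costimulator of T cells, was at least 4.14-fold higher. In LSK cells 1 of 6 measured receptors was at least 2-fold lower, Ngfr, the neurotrophin receptor, by 2.94-fold, and 0 were higher. The levels of Ngfr there were -3.94 at day 10, near the lowest called level of -4.10, and -2.38 at day 0.

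The intracellular part of the pathway was above background throughout. All 16 adaptors and members of the caspase-8 complex were measured, and in CD45-negative cells 7 were at least 2-fold higher at day 10 and 1 was lower, with a median difference of 0.84. Traf1, an adaptor whose gene is a known target of NF-kappaB, was 19.2-fold higher, with levels of 1.79 at day 10 and -2.47 at day 0, against 0.29 and 0.28 in LSK cells at day 10 and day 0. Traf3, an adaptor that restrains the noncanonical branch, and Map3k14, the kinase of that branch, were 3.58-fold and 3.30-fold higher. Birc3, a ubiquitin ligase of the receptor complex, was 2.59-fold higher, and Map3k7, a kinase of the canonical branch, was 2.02-fold lower.

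Of 13 NF-kappaB subunits, inhibitors and kinases, 9 were at least 2-fold higher at day 10 in CD45-negative cells and 0 were lower, with a median difference of 1.33. Relb, the subunit of the noncanonical branch, was 4.20-fold higher and the inhibitor Nfkbie 3.44-fold. The subunit Nfkb1 was 3.10-fold higher and the regulator Bcl3 2.98-fold. In LSK cells none of the 16 adaptors and none of the 13 NF-kappaB genes differed by 2-fold between the days, with medians of -0.02 and 0.00. Each list stands beside the same 23.6% of all genes at least 2-fold higher in CD45-negative cells and 1.44% in LSK cells.

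**Figure D5:**
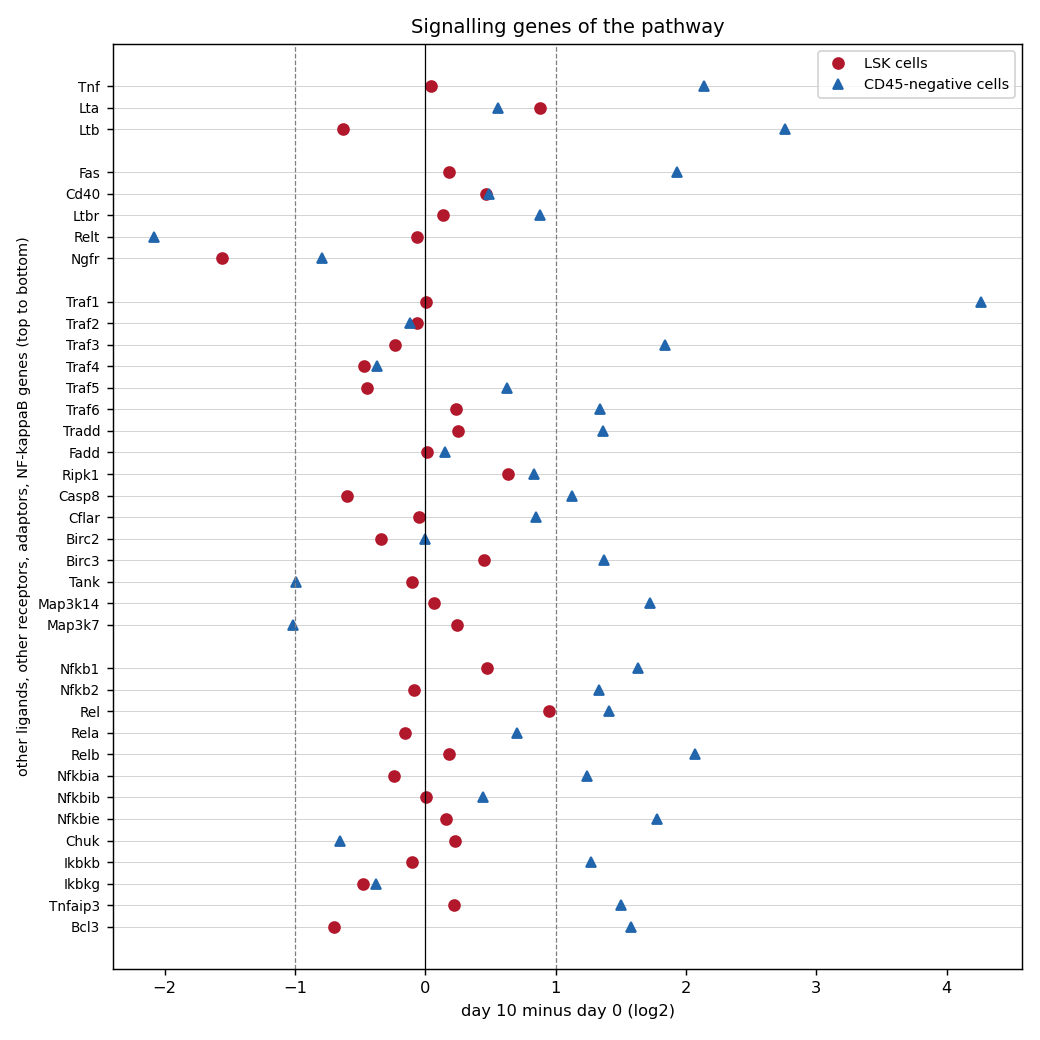
Day 10 minus day 0 difference on the log2 scale (x axis) of the pathway genes that are not members, for genes above background on both arrays of LSK cells and both arrays of CD45-negative cells, with red dots for LSK cells and blue triangles for CD45-negative cells. Among the adaptors Traf1 has the difference farthest to the right in CD45-negative cells, and no red dot of the adaptors or NF-kappaB genes lies beyond a dashed 2-fold line.

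Members that differed alike were looked at for position and promoter sequence. By RefSeq, 9 of the 30 members lie on chromosome 4, and the share of all genes there was not computed. Neighbouring pairs on it are Tnfrsf4 and Tnfrsf18, Tnfrsf1b and Tnfrsf8, and Tnfsf15 and Tnfsf8. Tnfrsf4 and Tnfrsf18 were both at least 2-fold higher at day 10 in CD45-negative cells, as were 11 of all 14 members measured there. In the other pairs, Tnfrsf8 and Tnfsf15 were not above background on any array. RefSeq promoters, from 250 bases before to 50 after a start (build GRCm38.p6), matched 23 of the 30 members with 27 windows. The NF-kappaB consensus motif was searched on both strands, where overlapping matches of its 2 strands count separately. It occurred in the windows of 3 of the 23 genes (13%), Tnfrsf8, Tnfrsf9 and Tnfrsf25, against 9.55% of all 27025 genes in the table, a share near the background. The windows of 2 members that were higher at day 10 in CD45-negative cells are shown, each the second start of its gene and on the plus strand, with the matches in capitals; the first start of either gene held none. The match is a description of the letters and not a binding site, and the other 20 genes lack these letters in these windows.
Tnfrsf9, chr4:150927749-150928048: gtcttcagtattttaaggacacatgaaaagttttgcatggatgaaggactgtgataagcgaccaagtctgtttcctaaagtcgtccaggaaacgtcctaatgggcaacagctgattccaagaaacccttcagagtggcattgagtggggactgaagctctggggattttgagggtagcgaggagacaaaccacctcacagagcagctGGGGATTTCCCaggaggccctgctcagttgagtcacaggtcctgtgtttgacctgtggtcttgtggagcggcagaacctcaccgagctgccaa
Tnfrsf25, chr4:152116093-152116392: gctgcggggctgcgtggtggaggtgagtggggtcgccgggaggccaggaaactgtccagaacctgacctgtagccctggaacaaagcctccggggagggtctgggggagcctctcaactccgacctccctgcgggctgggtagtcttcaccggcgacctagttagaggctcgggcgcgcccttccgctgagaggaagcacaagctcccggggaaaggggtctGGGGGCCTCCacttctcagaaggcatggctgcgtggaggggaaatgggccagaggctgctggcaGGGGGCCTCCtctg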

How the data were processed

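RNA of 4 sorted samples, 500 ng each, was primed with oligo-dT, labelled with Cy3 and hybridised to Agilent mouse arrays, per the labels' protocols, all on 1 slide per the file headers. Per the file headers, spots were read by Agilent's Feature Extraction software, version 10.5.1.1. The deposited spot files hold fluorescence intensity values, a raw mean and background and a processed signal with its error, and flags for detection, saturation, outliers and control spots. Values in the deposited series table are on a log2 scale and equal the log2 processed signal minus 1 constant per array within 0.001 for at least 99.9% of probes. The array design names mm9, so RefSeq (GRCm38.p6) served for names, neighbours and promoters only; it matched 69.2% of 40629 gene probes.

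Control and outlier spots were left out, the log2 processed signal was averaged over spots, and each array was scaled to its own 75th percentile. A gene with several probes was read from the one brightest on average. A fold counts as measured if both arrays called that probe well above background. Where no probe of the gene was above background on one of them, the fold is at least the brighter level over the higher of the dim probe's level and the lowest level called above background there, namely -4.10 (LSK, day 10), -3.95 (LSK, day 0), -4.24 (CD45-negative, day 10) and -3.15 (CD45-negative, day 0). The 20678 noncoding probes were kept apart. No member probe was saturated or an outlier. No test was run, since each group has 1 array; the counting was tested on simulated data. Alternatives used limma 3.58.1 for normexp (offset 50), quantile and cyclic loess. Members, lists and named-gene rules (every member above background anywhere, and up to 4 genes of each pathway list with the largest difference) were chosen with earlier results of these data known. Analyses ran in Python 3.11.15 and R 4.3.3.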

Additional observations from a re-analysis of the deposited data

Results flagged for a closer look

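Of the 14 members above background on all 4 arrays, 8 differed between day 10 and day 0 in opposite directions in the populations, lower at day 10 in LSK cells and higher at day 10 in CD45-negative cells. These 8 are 57.1% of the 14, and 27% of all 14189 genes above background on all 4 arrays showed the same signs. The difference between the populations was not tested, since each rests on 1 array a group. The CD45-negative difference exceeded the LSK difference by 3.80 log2 units for Tnfrsf18 (3.20 against -0.60) and by 3.38 for Tnfsf14 (3.07 against -0.31). It did so by 2.36 for Tnfrsf25 (1.52 against -0.84), by 2.25 for Tnfrsf13c (1.68 against -0.57) and by 2.05 for Tnfrsf12a (1.31 against -0.74). The gap was 1.88 for Tnfrsf1a (1.71 against -0.17), 1.24 for Tnfrsf4 (1.1 against -0.13) and 0.97 for Tnfrsf21 (0.70 against -0.28). The LSK differences of Tnfrsf1a and Tnfrsf4 lie within 1 spot error of 0. All 8 kept both signs under normexp, quantile normalization, cyclic loess and the median shift. The spike-in shift moved every LSK difference by -0.18 and every CD45-negative difference by 3.37. The percentile shift moved them in the same directions, so neither shift could turn a sign of these 8. The deposited series table nearly repeats the main scaling, so its signs were fixed as well. The detection settings could not change the differences of the 8, and the mean of probes only those of genes with several probes.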

How the results depend on the processing

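No paired analysis was possible because each group has 1 array. The percentile of probes detected on all arrays, quantile normalization and the mean of probes kept each count of members within 1.5 times. The deposited series table did so too, but it nearly repeats the main scaling and is no separate check. Of members at least 2-fold higher at day 10 in LSK cells (2), normexp left 0, the spike-in shift 1, detection on all 4 arrays 1, and no detection filter gave 4; of those lower (0), the spike-in shift gave 1 and no filter 2. In CD45-negative cells normexp left 7 of 11 higher, and of the 1 lower member the spike-in shift left 0 and no filter gave 4. For LSK minus CD45-negative cells at day 10, 3 higher became 1 with cyclic loess, 1 with the median shift, 0 with the spike-in shift and 7 with no filter, and 4 lower became 15 with the spike-in shift. At day 0, 10 higher became 5 with normexp, and 2 lower became 1 with the spike-in shift. The spike-in shift reversed the LSK minus CD45-negative differences of Tnfrsf1b (-0.73) and Tnfrsf22 (-0.41) at day 10 and Tnfrsf19 (0.25) at day 0. It rests on 5 probes and moved all-gene medians to 3.56 for the days in CD45-negative cells, -0.19 for the days in LSK cells, and -1.79 and 1.83 for LSK minus CD45-negative cells at day 10 and day 0. The median shift moved the first to 0.65 and the third to -0.41, and cyclic loess the third to -0.14. Of the 12 members 2-fold apart between days in CD45-negative cells, 8 stayed so with normexp and 11 or 12 with the others. The single array of each group limits every value, and members near background have bounds alone. Beyond the settings' own construction, the cause was not tested.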
